A study of Mus musculus with 8 samples.

Results

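The regions described here carried a called m6A peak in both innervated peak lists and in neither denervated list, and lay in genes with no region called in all 4 lists. Peaks of the 4 lists were pooled, and peaks on the same strand that shared at least 1 base of their blocks were linked into regions. Of 13116 regions, 551 (4.20%) were called in both innervated lists and in neither denervated list. Of these, 157 lay in genes that also held a region called in all 4 lists. The other 394 regions lay in 277 genes. They made up 6.77% of the regions of genes without a region of all 4 lists, and the 277 genes were 9.01% of such genes and 4.63% of the 5987 genes with a peak. They are called innervated-only regions below. Presence and absence of peaks chose them, so these counts describe the rule and were not tested.

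Gastrocnemius, a hindlimb muscle, was taken from 10-week-old male C57BL/6 mice. The muscle of one leg had been denervated for 14 days, and the muscle of the opposite leg kept its nerve and served as the innervated control. RNA was extracted with Trizol, m6A-bearing RNA was isolated with an m6A antibody, and libraries were made with a stranded total RNA kit. The series has 8 libraries, and a peak list exists for each of the 4 antibody libraries (innervated 1 and 2, denervated 1 and 2). The labels do not say whether the replicate numbers mark separate animals, so the p-values below measure only the spread between these samples.

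N6-methyladenosine is a methyl mark that a writer complex places on adenosines of RNA, mostly in messenger RNA and often near stop codons and in the last exon. Reader proteins bind the mark and affect splicing, translation and decay of the transcript. In MeRIP-seq, RNA fragments pulled down by the antibody are compared with the input RNA, and a peak is a stretch where the pull-down is enriched.

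A called peak depends on the amount of a transcript as well as on its mark. The input libraries were not analysed here, so whether RNA of these genes was scarcer in denervated muscle was not tested. In whole muscle, fewer cells of a type and less RNA per cell cannot be told apart.

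The core letters most often found at m6A sites include GGAC, and the methylated base is its A. Sequences are shown in 3 sets because the regions they belong to carry results below: the 5′ block of the widest region (Kcng4), the start of the one region that lies wholly in a promoter window (Clk3), and the stretch just upstream of a Srf region. All were copied from RefSeq tables on GRCm38.p6 (the mm10 assembly), 5′ to 3′ on the transcribed strand, with GGAC or, for Srf, each CArG box in capitals. The Kcng4 block is chr8:119632886-119633038, minus strand, and was read from the promoter window of the neighbouring Gm46055. The Clk3 sites are chr9:57765297-57765326 and chr9:57765262-57765291, minus strand. The Srf stretch is chr17:46556163-46556412, minus strand, and ends at the base before the region.
Kcng4 block: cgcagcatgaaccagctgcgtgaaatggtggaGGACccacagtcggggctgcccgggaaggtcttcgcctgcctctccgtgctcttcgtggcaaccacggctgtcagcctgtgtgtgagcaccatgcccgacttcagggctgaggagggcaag
Clk3 site 1: gaggctgctcccgGGACctccgggaagaga
Clk3 site 2: accgatgtcgcccGGACcctggcggggcag
Srf upstream: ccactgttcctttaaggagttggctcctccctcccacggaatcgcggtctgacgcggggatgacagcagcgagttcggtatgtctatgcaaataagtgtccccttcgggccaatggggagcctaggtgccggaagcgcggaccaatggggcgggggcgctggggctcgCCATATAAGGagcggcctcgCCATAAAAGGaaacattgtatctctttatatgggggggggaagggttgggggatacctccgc

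GGAC stood at position 33 of the 153-base Kcng4 block, counted from its 5′ end. In 32851 promoter windows, 41.7% held GGAC on the transcribed strand within their first 153 bases, and 66.3% held it on either strand. The core is therefore common in promoter windows at this length, and a match is a description, not a site. Within the first 250 bases, the width of the Clk3 region, 58% held it on the transcribed strand and 82.3% on either. Transcribed sequence of other genes was not searched. The CArG box, the element that Srf protein binds, was searched on both strands of the 250 bases upstream of each start. It stood at -82 and -62 relative to the annotated Srf start, and 1.47% of windows held one. The 250 bases upstream of the Fos start held none, and sequence further upstream was not searched for any gene. Of the 277 genes, 218 had a promoter window, and 3 of them held a CArG box (Eml1, Nfix and Srf). That was 1.38% of the 218, beside 1.62% of all genes with a window.

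Another sequence belongs to a region of Akt1s1, which encodes the mTORC1 inhibitor PRAS40. This 2-block region (chr7:44849322-44849755, plus strand, 148 covered bases) spans the place of a mature microRNA at chr7:44849705-44849725. The 3′ block called in innervated 2 covers it whole, and that of innervated 1 ends inside it. Its RefSeq sequence is given with the seed, bases 2 to 8, in capitals.
mmu-miR-707: cAGUCAUGccgcuugccuacg

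Genes linked to muscle and nerve activity are described before the other roles. Srf, a transcription factor that binds CArG boxes and serves muscle and immediate-early genes, carried 3, 3, 0 and 0 peaks in innervated 1, innervated 2, denervated 1 and denervated 2. Fos, a subunit of the AP-1 transcription factor, carried 3, 3, 0 and 0. Arc, an activity-induced gene of synapses, carried 3, 4, 0 and 0. The rule asked for peaks in both innervated lists, and absence of denervated peaks from the whole gene, as in these 3, held for 184 of the 277 genes (66.4%). That share stands beside the counts of genes without a denervated peak in each group below, none of which was tested against it.

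**Figure D1:**
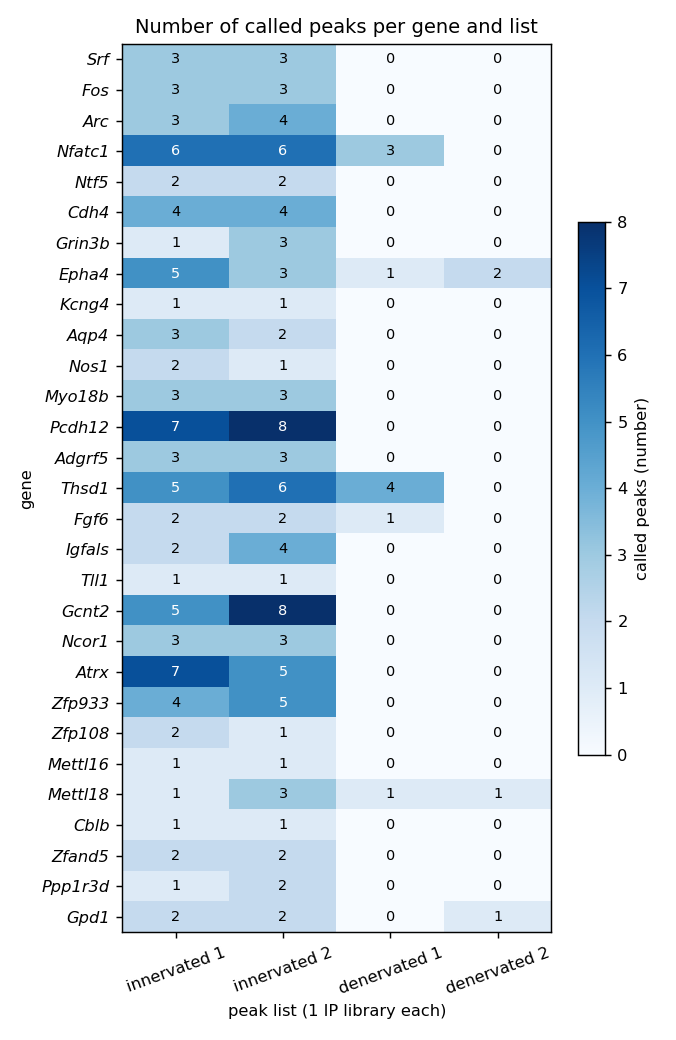
Number of called peaks (colour and figure in each cell) for 29 genes with innervated-only regions (rows) in each of the 4 peak lists (columns). Most of the rows shown stand at 0 in both denervated lists, while Nfatc1, Thsd1, Fgf6, Epha4, Mettl18 and Gpd1 have peaks at other places in at least 1 denervated list.

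The Srf regions lay at chr17:46548835-46549135, chr17:46555463-46555813 and chr17:46555962-46556162 on the minus strand. The last of them began at the annotated Srf start of the promoter table, directly after the stretch with both CArG boxes shown above. The first had identical blocks in both innervated lists, 301 bases wide, with scores of 0.0001 and 3.4e-06. The deposited score runs from 0 to 0.023 over the 4 lists and is read here as smaller for a stronger peak, although its meaning is not given in the sources used here. For each list the score was turned into a percentile, 100 for the smallest score, and the first Srf region stood at 53.9 and 77.0. The other Srf regions shared percentiles of 42.0 and 26.4.

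The Fos regions were 200, 250 and 151 bases wide, and the first had 3 blocks. All 3 stood at percentiles of 30.6 and 20.7, in the weaker part of each list. The Arc regions were 248, 297 and 296 bases wide on chromosome 15, each 49 bases or less from the next. Their percentiles were 91.5 in innervated 1 and 19.7 in innervated 2, so the lists gave Arc very different ranks. Gadd45a, a stress and growth-arrest gene, had 1 region of 344 bases in 2 blocks at percentiles of 60.1 and 41.0, and 1, 1, 0 and 0 peaks.

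Of 31 genes on a list of activity-induced transcription factors and Srf partners, 27 had a peak in any list and 20 had a region called in all 4. Those with an innervated-only region were Srf, Fos and Arc, 11.1% of the genes with a peak, beside 4.63% of all genes with a peak. None of the list carried the reverse pattern (denervated only, in genes without a region of all 4 lists). Over all 5987 genes with a peak, 259 did, and that count stands beside the reverse counts of the lists below. The reverse pattern was also set region by region, so its genes can hold innervated peaks at other places. Genes of the list with a peak numbered 26, 27, 22 and 23 in innervated 1, innervated 2, denervated 1 and denervated 2. These counts include Srf, Fos and Arc, which the rule chose for innervated peaks, so the rule itself raises the innervated counts. All genes with a peak numbered 4153, 4647, 4606 and 4234 in the same order, and the difference was not tested. Nfatc1, the calcium-responsive factor that acts downstream of calcineurin, was called in innervated 1 and 2 with 6 peaks each, in denervated 1 with 3 and in denervated 2 with 0. Its 1 innervated-only region, on chromosome 18, was 200 bases wide at percentiles of 13.8 and 1.61.

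Role groups, beyond the lists above, were put together after the values were seen, and their genes are named for their known roles. They hold 165 of the 277 genes in 15 groups. The other 112 genes were put in none.

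Genes of neurotrophic signalling and neural contact made up 12 genes with 21 regions, and 10 of the 12 had no peak in either denervated list, beside 66.4% of all 277 genes. Ntf5, which encodes neurotrophin-4, had 2, 2, 0 and 0 peaks and 1 region of 491 bases at percentiles of 84.3 and 87.6. All of its peaks were in the innervated lists, in the upper part of each.

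Grin3b, an NMDA receptor subunit gene, had 1, 3, 0 and 0 peaks. Its region at chr10:79975917-79976655 on the plus strand covered 398 bases in 4 blocks, with scores of 3.1e-10 and 2.5e-12. The percentiles of 97.8 and 98.9 put it second among the 394 regions by their mean. Cdh4, which encodes R-cadherin, had 4, 4, 0 and 0 peaks and 3 regions in its last 2% of span, all at percentiles of 39.9 and 13.7. Flrt1, a leucine-rich adhesion gene, had 4, 4, 0 and 0 peaks and 3 regions at percentiles of 28.4 and 91.4.

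Rtn4rl1, a Nogo receptor relative, had 2, 2, 0 and 0 peaks. Epha4, an ephrin receptor gene, had denervated peaks too, with 5, 3, 1 and 2 peaks, and one of its 2 innervated-only regions lay 397 bases from a denervated peak of the same gene. On a list of neuromuscular junction and excitability genes, 18 had a peak, 8 had a region of all 4 lists and 2 held an innervated-only region (Grin3b and Cdh4). These 2 were 11.1% of the 18, beside 4.63% of all genes with a peak. The reverse pattern held for 3 genes of that list, among them Chrnd and Kcnn3, beside 259 of all 5987 genes with a peak. Neither count was tested.

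Channel genes and their subunits, with the calcium pump gene Atp2b3 counted among them, numbered 10 with 15 regions. Of the 10, 8 had no denervated peak. Kcng4, a voltage-gated potassium channel modifier, held the widest of the 394 regions. It covered 2077 bases in 2 blocks at chr8:119624496-119633038 on the minus strand, of which the 5′ block is printed above. Both innervated lists covered nearly the same bases there, 2077 and 2027, with 2027 shared, at percentiles of 50.9 and 62.8. Neither denervated list had a peak in the gene, and the nearest denervated peak on the strand lay 25387 bases away, in Taf1c.

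Lrrc38, an auxiliary subunit gene of BK potassium channels, had 3, 3, 0 and 0 peaks in 3 regions, the widest of 942 bases at percentiles of 19.5 and 23.3. Aqp4, the water channel of the muscle fibre membrane, had 3, 2, 0 and 0 peaks and a region of 851 bases in 2 blocks at percentiles of 64.3 and 46.5. Scn4b, a sodium channel beta subunit gene, had 1, 1, 0 and 0 peaks at percentiles of 15.8 and 3.66. Over the 15 regions of this group, Atp2b3 included, the mean percentile ran from 9.75 to 56.9 with a median of 31.9. The median over all 394 regions was 48.5, and the difference was not tested.

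Kcnc1, a voltage-gated potassium channel gene, had 5, 3, 0 and 3 peaks, and its innervated-only region lay 546 bases from a denervated peak of the gene. Orai3, of the store-operated calcium channel family, had 3, 2, 0 and 1 peaks, with its region 547 bases from the denervated one. In both genes denervated 1 had no peak while denervated 2 had at least 1.

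Muscle fibre structure was represented by 4 genes with 6 regions. Nos1, neuronal nitric oxide synthase of the dystrophin complex, had 2, 1, 0 and 0 peaks and a region of 350 bases in the first 1% of its span at percentiles of 77.6 and 79.8. Myo18b, an unconventional myosin gene of striated muscle, had 3, 3, 0 and 0 peaks. One of its regions covered 1448 bases in 3 blocks, the next widest after Kcng4, at percentiles of 68.4 and 71.8. Sun2, of the nuclear envelope, had 1, 1, 0 and 0 peaks at percentiles of 48.0 and 67.4. Ky, a gene whose loss gives kyphoscoliosis in mice, had 2, 3, 2 and 0 peaks.

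On the list of sarcomere and Z-disc genes, 15 had a peak, and 9 had a region of all 4 lists and could not be chosen. None held an innervated-only region, beside 4.63% of all genes with a peak. The reverse pattern held for 3 (Myom1, Xirp2 and Mylk4), beside 259 of all 5987 genes with a peak. Xirp2 had innervated peaks too, with 12, 0, 11 and 16 peaks. Neither count was tested. The defining fibre markers bear on how peaks read in this tissue: of 12, which included Acta1, Ckm, Ttn and Myh4, none had a peak in any of the 4 lists. The labelled tissue could thus not be checked with fibre markers in these lists.

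Endothelial and vascular genes numbered 12 with 19 regions, and 7 of the 12 had no denervated peak. Pcdh12, an endothelial protocadherin gene on chromosome 18, had 7, 8, 0 and 0 peaks and 5 innervated-only regions at percentiles of 94.2 and 73.0. Adgrf5, an adhesion receptor of vascular endothelium, had 3, 3, 0 and 0 peaks in 3 regions. Cav1, caveolin-1, had 3, 2, 0 and 0 peaks in 2 regions, with percentiles from 1.64 to 6.50. The group therefore ran from strong to weak calls, with mean percentiles from 3.33 to 84.3.

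Thsd1, an endothelial thrombospondin-domain gene, had 5, 6, 4 and 0 peaks. Podxl, podocalyxin, had 2, 2, 1 and 0, as had Acvrl1, the BMP type I receptor ALK1 of endothelium, and Rhoj, an endothelial small GTPase. In each of these 4 genes the denervated peaks stood in denervated 1 alone. A single denervated list held them in 90 of the 93 genes with a denervated peak. Of the endothelial markers Pecam1, Cdh5, Kdr and Tek, Cdh5 had 2, 2, 3 and 3 peaks, Kdr 1, 1, 1 and 3, Pecam1 2 in denervated 1 alone, and Tek none. Genes of this marker list with a peak numbered 2, 2, 3 and 2, and their part in the result was not tested.

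Of the other marker lists, 0 of 4 macrophage genes had a peak, 1 of 4 Schwann cell genes (Sox10, in innervated 2), 2 of 4 fibroblast genes, 2 of 3 satellite cell genes and 1 of 3 adipocyte genes. No marker gene of any of the 7 lists held an innervated-only region.

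Matrix, glycan and proteoglycan enzyme genes numbered 10 with 15 regions, and 8 had no denervated peak. Gcnt2, a glycan-branching enzyme gene, had 5, 8, 0 and 0 peaks in 4 innervated-only regions. All 4 stood at 91.4 in innervated 1 and 9.31 in innervated 2, a score of 7.6e-08 against 0.0029. Tll1, a tolloid-like protease gene that acts on procollagen and BMP antagonists, had 1, 1, 0 and 0 peaks at a mean percentile of 90.8. Has2, hyaluronan synthase, had 3, 3, 0 and 3 peaks, and its innervated-only region lay 98 bases from a denervated one.

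The ubiquitin system held 10 genes with 14 regions, and 7 had no denervated peak. Cblb, a ubiquitin ligase that targets IRS1 in unloaded muscle, had 1, 1, 0 and 0 peaks in 1 region at chr16:52204462-52205010 on the plus strand. Its 549 bases came from 299 bases called in innervated 1 and 549 in innervated 2, at percentiles of 25.4 and 29.7. Zfand5, a zinc-finger activator of the proteasome, had 2, 2, 0 and 0 peaks and a region of 799 bases at 72.7 and 73.2. Cul5, a cullin scaffold, had 1, 2, 0 and 0 peaks at 69.9 and 71.0, and Ube2d3, a ubiquitin-conjugating enzyme gene, 1, 1, 0 and 0 at 38.0 and 64.0.

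Of 18 genes with a peak on a list of atrophy ubiquitin ligases and partners, Cblb and Zfand5 held an innervated-only region (11.1%). The share over all genes with a peak was 4.63%. Fbxo31, Klhl41 and Ubr2 had the reverse pattern, although Ubr2 had innervated peaks too (0, 2, 5 and 3 peaks). Of the 18, 10 had a region of all 4 lists. The list thus held 2 genes of the first pattern and 3 of the reverse one.

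Metabolic genes numbered 13 with 19 regions, and 8 had no denervated peak. Ppp1r3d, a glycogen-targeting subunit gene of protein phosphatase 1, had 1, 2, 0 and 0 peaks and a region of 494 bases at percentiles of 91.3 and 89.1. Gpd1, the cytosolic glycerol-3-phosphate dehydrogenase, had 2, 2, 0 and 1 peaks, with the denervated one 943 bases from its region. On a list of glycogen and glycolysis genes, 17 had a peak, 7 had a region of all 4 lists, 3 held an innervated-only region (Ppp1r3d, Slc2a12 and Gpd1; 17.6%) and 3 had the reverse pattern (Phka1, Ppp1r3b and Gpi1). The counts in the 2 directions were equal. The 17.6% stands beside 4.63% of all genes with a peak and was not tested.

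Solute carrier genes numbered 9 with 11 regions, and 5 had no denervated peak. They made up 8.26% of the 109 genes named Slc with a peak, beside 4.63% of all genes with a peak, which was not tested. Of the 109, 38 had a region of all 4 lists and could not be chosen, beside 2913 of all 5987 genes. Slc2a3, the glucose transporter GLUT3, had 1, 1, 0 and 0 peaks at 57.0 and 7.82. Slc2a12, the glucose transporter GLUT12, had 2, 3, 0 and 0 peaks in 2 regions at 35.8 and 28.5. Slc25a25, a mitochondrial ATP-Mg/phosphate carrier gene, had 2, 3, 0 and 0 peaks in 2 regions. Slc40a1, ferroportin, had 2, 2, 0 and 2 peaks, and its region fell at 1.16 in innervated 1 and 66.6 in innervated 2. Of 22 genes with a peak on a mitochondrial list, 10 had a region of all 4 lists. Slc25a25 held an innervated-only region (4.55% of the 22, close to the 4.63% of all genes with a peak). Esrrg, with 0, 2, 3 and 4 peaks, and Ndufaf4 had the reverse pattern.

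Genes of the mitochondrial ribosome, assembly and translation numbered 5 with 6 regions, and none had a denervated peak, in a group of few genes put together after the values were seen and beside 66.4% of all 277 genes without one. Mrpl45 had 3, 2, 0 and 0 peaks in 2 regions, the wider of 596 bases, and Mrpl51 had 1, 1, 0 and 0.

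Growth signalling and kinase genes numbered 17 with 20 regions, and 11 had no denervated peak. Igfals, the acid-labile subunit gene of the circulating IGF complex, had 2, 4, 0 and 0 peaks in 2 regions of 99 and 492 bases, both at percentiles of 91.3 and 94.2. Pik3ip1, an inhibitor of PI3-kinase, had 1, 2, 0 and 0 peaks at 3.97 and 7.32. Eif4e, the cap-binding translation factor, had 2, 1, 0 and 0 at 68.7 and 27.1. Akt1s1, whose region spans mmu-miR-707, had 3, 3, 0 and 1 peaks at 3.74 and 9.70. Fgf6, a muscle fibroblast growth factor gene, had 2, 2, 1 and 0 peaks, and its region lay 97 bases from a peak of denervated 1. Of 21 genes with a peak on an insulin, IGF and mTOR list, 13 had a region of all 4 lists. Igfals held an innervated-only region (4.76% of the 21, close to the 4.63% of all genes with a peak). Igfbp3, with 0, 1, 2 and 3 peaks, had the reverse pattern.

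Of 26 writers, erasers and readers of m6A, 10 had a peak and 8 had a region of all 4 lists. An innervated-only region was held by 1 of the 10 (10%), beside 4.63% of all genes with a peak. That gene was Mettl16, which methylates U6 RNA and the MAT2A transcript. It had 1, 1, 0 and 0 peaks in a region of 298 bases at percentiles of 26.2 and 40.4. Mettl18, a histidine methyltransferase of a ribosomal protein, was behind only Zfp108 and Grin3b among all 394 regions, at 95.8 and 95.7, but had 1, 3, 1 and 1 peaks and a denervated peak 339 bases away.

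Zinc finger genes numbered 17 with 21 regions, and 10 had no denervated peak. Zfp108 held the smallest scores of all 394 regions, 6.3e-13 and 6.3e-14, at percentiles of 99.3 and 99.3. It had 2, 1, 0 and 0 peaks, and its 200-base region at chr7:24262047-24262246 on the plus strand lay at 96.1% of the gene span. Zfp933 had 4, 5, 0 and 0 peaks in 3 regions, and Zfp101 had 3, 2, 0 and 0 in 1 region at 89.3 and 92.8. Genes named Zfp with an innervated-only region were 12 of 233 with a peak (5.15%), close to the 4.63% of all genes. Of the 233, 134 had a region of all 4 lists. Zinc finger genes are often near copies of each other, and how shared reads were assigned is not given in the sources used here.

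Other transcription factors, cofactors and chromatin genes made the biggest group, 26 genes with 40 regions, and 12 had no denervated peak. Ncor1, the nuclear receptor corepressor, had 3, 3, 0 and 0 peaks in 3 regions, all below the 40th percentile in both lists. Atrx, a chromatin remodeller on chromosome X, had 7, 5, 0 and 0 peaks in 5 regions. One of them stood at 25.4 and 12.2 and the other 4 at 55.9 and 60.8. Med11, a Mediator subunit gene, had 1, 1, 0 and 0 peaks at 85.0 and 95.8. Spin4, a gene for a histone reader of the spindlin family, had 2, 1, 0 and 0 at 93.1 and 88.4.

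Foxd3, a neural crest transcription factor, had 3, 4, 0 and 0 peaks in 2 regions at 83.8 and 89.4. Satb1, a chromatin organiser, had 3, 3, 1 and 0, Nfix 7, 4, 4 and 0, Hoxa5 2, 2, 0 and 3, and Pygo1, a Wnt cofactor, 3, 4, 2 and 0. In these 4 genes the denervated peaks all came from 1 of the 2 denervated lists, as in 90 of the 93 genes with a denervated peak. On a list of corepressors, coactivators and chromatin genes, 40 had a peak and 28 had a region of all 4 lists. An innervated-only region was held by 3 (Ncor1, Med11 and Spin4), and 1, Kdm3a, had the reverse pattern. The 3 were 7.5% of the 40, beside 4.63% of all genes with a peak, and this was not tested.

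The remaining lists gave few genes. Of 18 stress genes with a peak, Gadd45a alone held an innervated-only region (5.56%). Of 30 genes of TGF-beta, BMP and activin signalling with a peak, Tll1 alone did (3.33%), while Gdf5, Gdf15 and Bmpr2 had the reverse pattern. Of 11 DNA repair genes with a peak, Apex2 alone did (9.09%), at 95.7 and 81.0 with 1, 2, 0 and 0 peaks. Of 15 circadian clock genes with a peak, 0 did and Per2, with 2, 0, 4 and 4 peaks, had the reverse pattern. A region of all 4 lists was held by 10 of these 15. Over all genes with a peak the share was 4.63%, and none of these counts was tested. Immune and interferon-linked genes, grouped after the values were seen, numbered 12 with 12 regions and included Ifit3, an interferon-induced gene, with 1, 2, 0 and 0 peaks at 86.1 and 73.0.

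By annotation 263 of the 277 genes code for protein, 12 are long non-coding RNA genes and 2 are transcribed pseudogenes. The non-coding 9930014A18Rik held 4 regions at percentiles of 90.3 and 97.5 and had 6, 4, 0 and 0 peaks. Of these regions 2 overlapped innervated-only regions of Fam84b on the other strand. In all, 8 innervated-only regions were overlapped by a peak of any list on the other strand, and 3 of the 8 by a denervated one (Stk25 against Farp2, 1700094J05Rik against Pcnt, and the joint locus of Cers1 and Gdf1 against Upf1). For those 3, absence held on their own strand only.

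Genes outside the role groups also stood high in both lists. Mab21l1 had 5, 6, 2 and 0 peaks, and its 2 regions, 249 bases wide each, stood at percentiles of 94.2 and 96.6 with a denervated peak 197 bases from the nearer one. Coil, the coilin gene of Cajal bodies, had 2, 2, 0 and 2 peaks and a region at 91.5 and 92.1. Wwox, a gene for a WW-domain oxidoreductase, had 3, 3, 0 and 0 peaks in 3 regions at 84.0 and 90.3, all at the very 3′ end of its span. Every region of these 3 genes was thus in the upper part of both lists. The long non-coding 2310015D24Rik had 6, 5, 0 and 0 peaks in 4 regions at 90.9 and 88.4, and 4632428C04Rik 4, 4, 0 and 0 in 3 regions at 93.0 and 88.7. Ildr2 had 4, 5, 0 and 0 in 4 regions at 45.6 and 33.7, and Tmtc2 5, 3, 0 and 0 in 3 regions that ranked higher in innervated 2 than in innervated 1. Mllt3, of the super elongation complex, had 5, 3, 0 and 0 peaks in 3 regions, one of them 948 bases wide.

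Most genes held a single innervated-only region: 197 genes had 1, 52 had 2, 21 had 3, 4 had 4, 2 had 5 and 1 had 6. The 6 belonged to 1700025G04Rik, all in the last 5% of its span, with 8, 6, 0 and 0 peaks. Regions of a gene were not independent in score. In 51 of the 80 genes with at least 2 innervated-only regions, each innervated list gave all of these regions the same score, as with Fos, Arc and Gcnt2. Over genes and lists with more than 1 peak, 240 of 376 pairs had a single score.

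The rule required absence region by region, and for 184 of the 277 genes (66.4%, Wilson 95% interval 60.7 to 71.7, counting error only) absence held across the whole gene. These 184 genes held 283 of the 394 regions. Another 47 genes had a peak elsewhere in denervated 1 alone and 43 in denervated 2 alone. Only 3 genes, Epha4, Mettl18 and Preb, had peaks in both denervated lists.

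Beside the 394 regions, the 277 genes held 343 other regions. Of these, 168 were called in 1 innervated list alone and 132 in 3 lists. Those 132 were both innervated lists with denervated 1 (71 regions), both with denervated 2 (60) and innervated 2 with both denervated lists (1). Regions of denervated 1 alone numbered 9 and of denervated 2 alone 13.

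The nearest denervated peak on the same strand lay at a median of 90574 bases, and in 111 regions it was in the same gene. It lay within 50 bases of 4 regions, within 100 of 16, within 500 of 47 and within 1000 of 66. Just inside the rule, the gap was 48 bases for Thsd1 (chr8:22259292-22259491), 49 for Ifi203, Slc43a1 and Rsf1, and 97 for Fgf6. Just outside it, regions of 4933415F23Rik, Sfrp4, Nynrin and Kcna7 were left out for 1 base shared with a denervated peak, and one of Swap70 for 2. In genes that passed the same gene rule, 724 regions were called in both innervated lists and exactly 1 denervated list, and 5 of them shared under 50 bases with it.

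**Figure D2:**
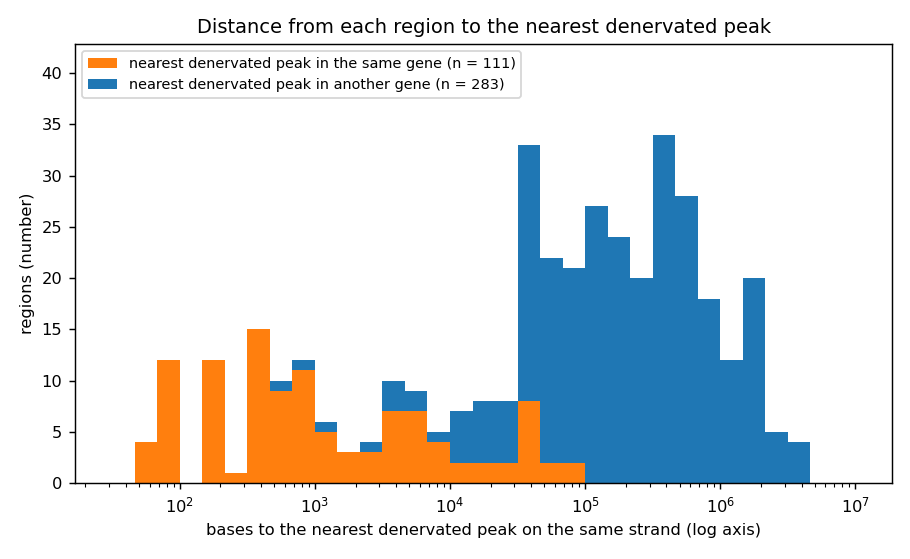
Distance from each of the 394 regions to the nearest denervated peak on the same strand (bases, log axis), split by whether that peak lies in the same gene. The smallest distance is 48 bases, and 47 regions lie within 500 bases of a denervated peak.

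The covered width of the 394 regions, the number of bases in their blocks, ran from 99 to 2077 with a median of 250 (quartiles 199 and 351). Of the 394, 35 were under 150 bases wide, 144 from 150 to under 250, 108 from 250 to under 350, 66 from 350 to under 500, and 41 of 500 bases or more. Denervated-only regions were 481 in all (3.67% of all regions), and the 377 chosen by the reverse rule had a median of 299 (201 and 399), and the 4541 regions of all 4 lists a median of 593 (399 and 847). Innervated-only regions in genes with a shared region had a median of 200, and regions called in 1 list a median of 149. A region joins more peaks the more lists it is called in, so width and number of lists are tied by construction, and no test was made.

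**Figure D3:**
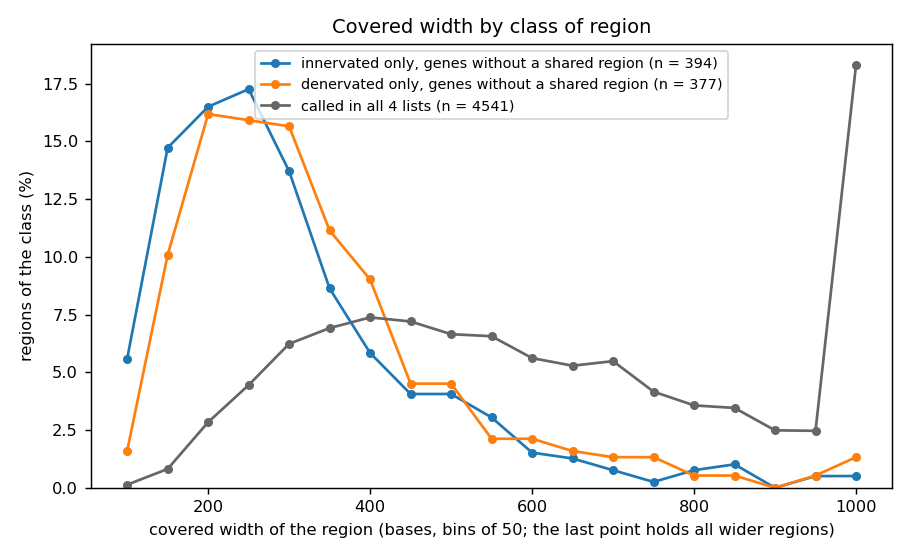
Share of regions (%) by covered width in bins of 50 bases for the 394 innervated-only regions, the 377 denervated-only regions under the reverse rule and the 4541 regions of all 4 lists. The innervated-only regions centre near their median of 250 bases, and regions of all 4 lists near 593.

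Widths fell on a grid. Of the 394, 321 (81.5%) were within 2 bases of a multiple of 50, and gaps such as 48, 49, 97 and 98 bases lay on the same grid. The peaks of the 2 innervated lists seldom had the same edges: 56 regions (14.2%) had identical blocks in both, and the shared bases were a median fraction of 0.668 of the covered ones (quartiles 0.501 and 0.801). Innervated 2 was the wider in 188 regions, innervated 1 in 132, and 74 were equal.

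A block ends where the peak skips genome sequence, as at a splice junction. One block made up 340 regions, 46 had 2, 6 had 3, 1 had 4 (Grin3b) and 1 had 6 (Suds3, a Sin3 corepressor subunit gene). Regions of more than 1 block numbered 54, 13.7% (Wilson 10.7 to 17.5). The share was 11.7% (8.81 to 15.3) in the denervated-only regions and 28.9% in the wider regions of all 4 lists. The 2-block region of Dach1, a developmental transcription factor gene, spanned 149939 bases for 450 covered ones, the longest span of the 54.

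The regions gathered at the 3′ end of their genes. Placed along the RefSeq gene span from 0 at the 5′ end to 100 at the 3′ end, their median was 89.6 (quartiles 53.5 and 96.8). The last 10% of the span held 193 of 394 (49.0%, Wilson 44.1 to 53.9) and the first 10% held 28 (7.11%). In the denervated-only regions the last 10% held 152 of 377 (40.3%, 35.5 to 45.3), and in those of all 4 lists 38.9% (37.5 to 40.3). The intervals cover counting error only and treat regions of 1 gene as independent. The difference was not tested, and exon and UTR annotation was not used here.

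**Figure D4:**
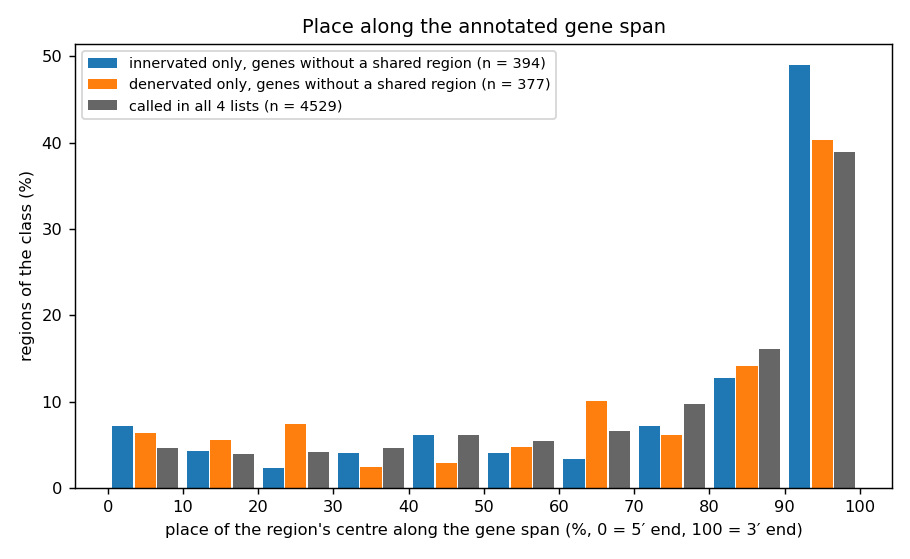
Share of regions (%) in each 10% of the gene span, from the 5′ to the 3′ end, for the innervated-only, the denervated-only and the all-list regions. The last 10% holds 49.0%, 40.3% and 38.9% of them.

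Counts by place are given for role groups that were put together after the values were seen, and no difference between them was tested. In endothelial genes 13 of 19 regions lay in the last 10% of the span, in matrix and glycan genes 10 of 15, and in neural genes 12 of 21. In activity-linked genes 1 of 12 did, and Srf, Fos and Arc held 9 of those 12 regions. In other transcription factor and chromatin genes 11 of 40 did. At the other end, 1 region each of Srf and Maz began at an annotated start of the promoter table, and those of Cahm and Tusc1 49 bases after one. The gene spans of Srf and Maz reach further 5′, and this Srf region stood at 19.3% of its span. The Clk3 region, of a kinase that phosphorylates splicing factors, was 250 bases wide and began 247 bases upstream of such a start. It still lay inside the Clk3 gene span, which also reaches further 5′. Both GGAC sites shown above lay in it, at percentiles of 29.8 and 13.7. Clk3 had 3, 2, 1 and 0 peaks in all.

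By score the regions spanned the full range of each list. The mean percentile over the innervated lists had a median of 48.5 (quartiles 27.2 and 66.1), beside 45.8 for denervated-only regions in their own lists and 52.7 for regions of all 4 lists. In innervated 1, 38 regions (9.64%) stood above the 90th percentile and 38 below the 10th. In innervated 2, 40 (10.2%) stood above the 90th and 46 (11.7%) below the 10th.

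Ranks in the innervated lists were only partly alike. Across the 394 regions, which share scores within genes, Pearson's r was 0.459 and Spearman's rank correlation 0.456, given as a description. The median absolute difference was 14.7 percentile points. Both lists put 120 regions above the 50th percentile and 149 below it, and the other regions were split between the lists, as with Arc and Gcnt2.

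**Figure D5:**
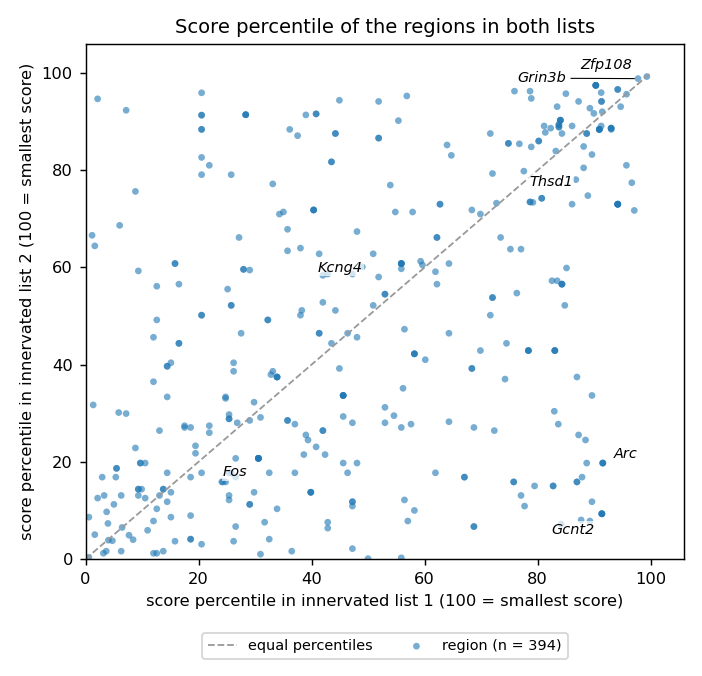
Score percentile of each of the 394 regions in innervated 1 (x) and innervated 2 (y), 100 at the smallest score of the list, with equal percentiles dashed. Zfp108 and Grin3b lie at the upper right, Fos at the lower left, and Arc and Gcnt2 at the lower right, high in innervated 1 and low in innervated 2.

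The lists as wholes bear on these counts. They held 9327, 10300, 9804 and 9496 peaks in 4153, 4647, 4606 and 4234 genes, and the read depth behind them is unknown. Peak numbers did not separate the groups (9813.5 ± 688 against 9650.0 ± 218, SD, n = 2 each; exact permutation p = 1, tested on both sides, and 2 against 2 allows no p below 0.333). The median width was 249 and 250 in the innervated lists and 250 in both denervated ones (exact permutation p = 1), and multi-block peaks made up 11.5%, 12.5%, 11.6% and 14.8% (exact permutation p = 0.667).

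The innervated-only regions lay on the minus strand in 43.4% of cases, beside 48.4% of the 157 innervated-only regions in genes with a shared region, 56.8% of denervated-only regions and 57.5% of regions of all 4 lists. In the whole lists minus-strand peaks made up 55.6% and 56.3% in the innervated lists and 57.6% and 57.9% in the denervated ones, which did not overlap (exact permutation p = 0.333, the smallest this design allows). This comparison was added after seeing the data.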

How the data were processed

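Each peak list holds the peaks of 1 m6A antibody library against its input, as deposited by the authors, with the score as the authors deposited it (0 to 0.023, nature not stated). Per the submitters' processing notes, STAR 2.4.2a, ChIPseeker and the mm10 build were used. The sources used here do not give the peak caller, its thresholds or the read depth. Peaks of the 4 lists were linked where at least 1 base of their blocks was shared on a strand, and region classes followed from the lists each region held. Gene names are those of the deposited lists. Of the 277 genes, 268 matched RefSeq by symbol and 9 by an older symbol, and the gene span gave the place of a region. Scores were ranked within each list, with ties at their mean rank. The linking was tested on simulated peaks. For whole-list values, exact permutation of the 4 libraries gave p on both sides. Shares have Wilson 95% intervals, which cover counting error only.

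Genes were named by rule: the 15 regions with the smallest scores, the 12 genes with the most regions, the 5 widest, the 5 with the most blocks, the 5 nearest to a denervated peak, and up to 8 per gene list. The members and the 13 gene and 7 marker lists were chosen with earlier results of these data known, and genes outside the rule were chosen after their values were seen. Some genes are not reported here. Alternatives changed the overlap, the joining distance, the score range, the list size, the gene assignment, the strand rule and the libraries used. The work used Python 3.11.15, numpy 2.4.6, scipy 1.17.1 and matplotlib 3.10.9.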

Additional observations from a re-analysis of the deposited data

How the results depend on the processing

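The count of 394 regions in 277 genes lay between 347 and 500 regions and between 238 and 372 genes under the alternatives that kept all libraries. A reciprocal overlap of 50% gave 500 regions, and joining peaks within 100 bases, or asking for no denervated peak within 500 bases, gave 347. Ignoring strand, added after seeing the data, gave 386. Of the 394 regions, 328 were kept with the reciprocal overlap, 371 with the joining and 350 with equal numbers of peaks. With only the better-scoring 50% of each list 120 were kept, and with the other 50%, 151. These 2 score ranges share no peak, so a region kept in one was mostly lost from the other by construction. The low numbers therefore do not show how stable the members are. Of the 277 genes, 6 remained under both score ranges, among them Srf, Atrx and Myo18b. Leaving out 1 library asks less of each region but bars more genes, since a region of all remaining lists then excludes its gene. It gave 629 to 1284 regions in 394 to 796 genes. The regions numbered 1284 when innervated 1 was dropped, 902 for innervated 2, 788 for denervated 1 and 629 for denervated 2. Of the 394 regions, 393, 394, 343 and 337 were kept, in the same order. The median width of whole lists, innervated minus denervated, was -0.5 bases and turned to 0.5 with the weaker-scoring 50% and 20.5 with equal numbers of peaks. With same-numbered libraries paired as a replicate block, added after seeing the data, multi-block peaks differed by -0.0614 and -2.34 percentage points (mean -1.20), median widths by -1 and 0 bases (mean -0.5), and minus-strand peaks by -1.97 and -1.67 points. With 2 pairs the exact sign-flip test gives no p below 0.5, and the labels do not say that the numbers pair muscles of 1 animal. The counts of regions come from no test and take no block. Read depth is unknown, so absence of a peak cannot be set against it.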
